A study of Mus musculus with 3 samples.

Results

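The ELAVL and CELF genes encode 2 families of RNA-binding proteins, and all 10 of them were followed through the transcript table: Elavl1, Elavl2, Elavl3 and Elavl4, and Celf1, Celf2, Celf3, Celf4, Celf5 and Celf6. They were picked out by gene symbol and account for 91 of the 84660 deposited transcript rows and for 10 of 18121 protein-coding genes. Poly-A RNA came from dissociated cortical neurons of embryonic day 16 Swiss-Webster mice, an outbred stock, grown in neurobasal medium with B27. There is 1 group, Control, of 3 libraries, wild type in genotype and with no treatment given. The growth text shared by the samples also mentions the topoisomerase poison etoposide in DMSO, but the labels of these libraries give none, and no other group was analysed here. The labels do not say if each library had its own culture, so the p-values rest on differences between libraries that may be technical.

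ELAVL proteins, also called Hu proteins, carry 3 RNA recognition motifs and bind U-rich and AU-rich stretches, often in 3′ UTRs, where they can stabilise an mRNA or favour its translation. They also act on splicing and on the choice of poly-A site in the nucleus. CELF proteins, with 3 motifs of the same type, prefer GU-rich stretches, steer alternative splicing in the nucleus and can promote deadenylation and decay in the cytoplasm. Elavl1, which encodes HuR, is expressed in most tissues, whereas Elavl2, Elavl3 and Elavl4, which encode HuB, HuC and HuD, are the neuronal ELAVL genes. Celf1 and Celf2 are widely expressed, and Celf3, Celf4, Celf5 and Celf6 are expressed mainly in the nervous system.

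The coding stretch of RNP-1, the most conserved motif of an RNA recognition motif, is shown for the first such domain because it is where the 4 ELAVL genes are the same in protein and still distinct in DNA. All 4 stretches have 24 bases and encode the same 8 residues. Capitals mark bases that differ from Elavl1. The sequences are read 5′ to 3′ on the minus strand of GRCm38, which is the mm10 build, within coding exons.
Elavl1 at chr8:4304999-4305022: ttgggctacggttttgtgaactat
Elavl2 at chr4:91281286-91281309: ttgggTtacggAtttgtgaactaC
Elavl3 at chr9:22036384-22036407: CtgggctaTggGtttgtgaactaC
Elavl4 at chr4:110226617-110226640: ttAggGtaTggAtttgtTaactat
Elavl2, Elavl3 and Elavl4 differed from Elavl1 at 3, 4 and 5 of these bases. Across whole translated coding sequences, the ELAVL proteins were 69.4% to 89.1% identical over aligned residues. Elavl2 and Elavl4 formed the closest pair, at 89.1%, and Elavl1 and Elavl3 the most distant, at 69.4%. CELF proteins were 41.8% to 79.6% identical, with Celf1 and Celf2 the closest pair. Between families the identity was 23.5% to 35.5%. No member shared a 50-base word of its transcript with another member of its own family. The share of 50-base words found at no other annotated gene was 88.0% in Celf5 and 95.6% to 100% in the other 9 (Elavl3 and Celf6 share a few such words with each other). Exons of 3 members overlap rows of other genes on the opposite strand: Elavl1 overlaps Ccl25 rows by 48 to 79 bases, Celf3 overlaps Riiad1 by 74 bases, and Celf5 overlaps the antisense gene Gm16105, listed at 0, by 543 bases. The library kit keeps strand, but the counting setting is not given in the sources used here, so reads in these stretches are of uncertain origin.

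Levels are given in TPM, the authors' length-scaled share of reads, of the longest protein-coding transcript row of each gene. Each library summed to 1000000 over rows that share reads, so the values compare genes with each other and are lower than a TPM in which each read counts once. Libraries 1, 2 and 3 held at least 26.1, 23.04 and 22.7 M reads in coding genes, and a 2 kb row at 1 TPM held 86.5 to 102.5 reads. Defining markers of neurons were high: all 7 were detected, at 22.6 TPM for Rbfox3 to 687 TPM for Stmn2, and their sum was 1918 to 2202 TPM per library. All 5 glutamatergic, all 5 GABAergic and all 6 astrocyte markers were also detected, and so were 5 of 6 markers of progenitors and dividing cells and 4 of 5 of the oligodendrocyte lineage. Of the microglial markers, 1 of 4 reached 1 TPM, Aif1 at 1.03, and Cx3cr1 was lowest at 0.038 TPM. None of the 3 endothelial markers reached it, with Pecam1 at 0.247 TPM and Cldn5 listed at 0. In bulk RNA such as this, fewer cells of a type cannot be told apart from less RNA per cell.

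All 10 members were expressed. Each had a mean of at least 1 TPM, the level taken here as detection, which 61.5% of protein-coding genes reached. A mean of 10 TPM was reached by 8 of the 10, all but Elavl1 and Celf6, and by 26.4% of protein-coding genes. A mean of 50 TPM was reached by Celf4 alone, and by 4.71% of protein-coding genes. With each gene's highest row in place of the longest, these counts were 10, 9 and 2 of 10, beside 63.0%, 31.0% and 6.48% of protein-coding genes. The median level of the members was 29.01 TPM, beside 8.10 TPM for the 11150 detected protein-coding genes.

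**Figure D1:**
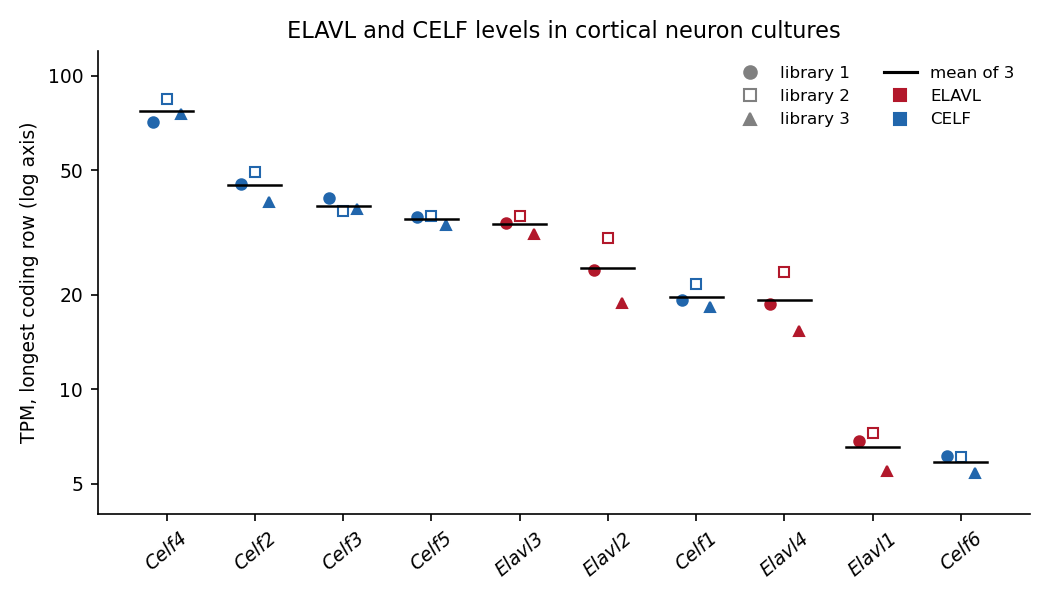
TPM of each member in libraries 1, 2 and 3 on a log axis, ordered by mean, with ELAVL genes in red, CELF genes in blue and a bar at the mean of 3 libraries. Celf4 lies above all others in every library at 71.1 to 84.0 TPM, and Elavl1 and Celf6 lie below all others.

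Among the ELAVL genes, the neuronal members were all above the widely expressed one. Elavl3, whose product HuC is a marker of postmitotic neurons, had 33.8, 35.8 and 31.3 TPM in libraries 1, 2 and 3, with a mean of 33.6 ± 2.26 (SD, n = 3). It rested on 8715, 7775 and 7181 reads. Elavl2 had 24.1, 30.3 and 18.9 TPM, with a mean of 24.4 ± 5.68 (SD, n = 3). Elavl2 was below Elavl3 in each library, and its own libraries lay further apart than those of Elavl3.

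Elavl4, whose product HuD binds Gap43 mRNA and promotes neurite growth, had 18.7, 23.7 and 15.4 TPM, with a mean of 19.2 ± 4.17 (SD, n = 3). Elavl1 had 6.83, 7.26 and 5.503 TPM, with a mean of 6.53 ± 0.915 (SD, n = 3). The highest library of Elavl1 lay below the lowest library of every neuronal ELAVL gene. On the log2(TPM + 1) scale, Elavl3 exceeded Elavl1 by 2.21 ± 0.09, Elavl2 exceeded it by 1.74 ± 0.16 and Elavl4 by 1.41 ± 0.14 (SD over 3 libraries). These differences had the same sign in 3 of 3 libraries, and flipping signs over libraries in an exact permutation test (two-sided) gave p = 0.25 for each, the smallest p that 3 libraries allow.

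As shares of the summed longest rows of the family, Elavl3 took 40.5% ± 3.55, Elavl2 28.9% ± 2.30, Elavl4 22.8% ± 1.43 and Elavl1 7.81% ± 0.358 (SD, n = 3). The 3 neuronal genes together held 91.8%, 92.5% and 92.3% in libraries 1, 2 and 3. Elavl3 minus Elavl2 was 0.47 ± 0.23 and Elavl2 minus Elavl4 was 0.32 ± 0.04 (log2, SD over 3 libraries), each above 0 in 3 of 3 libraries. With the highest row in place of the longest, Elavl3 minus Elavl2 was 0.11, so the distance between these 2 genes varied with the row that stood for Elavl2. The shares were computed on the longest rows only and depend on that choice too. The highest row was 1.28 times the longest in Elavl2, 1.09 times in Elavl4, and the same row in Elavl1 and Elavl3.

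Among the CELF genes, Celf4 stood highest. Its product binds many mRNAs of synaptic proteins, and mice that lack a copy of it have seizures. Celf4 had 71.1, 84.0 and 75.4 TPM, with a mean of 76.8 ± 6.57 (SD, n = 3), and ranked 435 among protein-coding genes. The genes next to it in level were Sdhd, a subunit of respiratory complex II, at 76.9 ± 8.38 TPM just above, and Csnk1a1, casein kinase 1 alpha, at 76.8 ± 3.50 TPM just below (SD, n = 3).

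Celf2, a splicing regulator also called ETR-3, had 45.0, 49.4 and 39.6 TPM, with a mean of 44.7 ± 4.90 (SD, n = 3). It rested on 20406, 18911 and 16022 reads, the most of any member, on a row of 8856 bases. The gene next above it was Ptbp2, the neuronal polypyrimidine tract binding protein, at 44.7 ± 2.28 TPM, and the gene next below was Zfp706 at 44.6 ± 3.16 TPM (SD, n = 3). Celf4 exceeded Celf2 by 0.77 ± 0.13 (log2, SD over 3 libraries) and their libraries did not overlap.

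Celf3 and Celf5 followed, and both belong to the nervous-system branch of the family. Celf3 had 40.6, 37.0 and 37.7 TPM, with a mean of 38.4 ± 1.94. Celf5 had 35.5, 35.7 and 33.4 TPM, with a mean of 34.9 ± 1.32 (SD, n = 3 each). On the longest rows, all libraries of Celf3 lay above all libraries of Celf5, but only by 0.14 ± 0.08 on the log2 scale.

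Celf1, whose product CUGBP1 promotes deadenylation of GU-rich mRNAs and is altered in myotonic dystrophy, had 19.2, 21.6 and 18.3 TPM, with a mean of 19.7 ± 1.70 (SD, n = 3). It lay below its nearest relative, Celf2, by 1.14 ± 0.06 (Celf2 minus Celf1, log2, SD over 3 libraries). Celf6 was lowest, with 6.11, 6.08 and 5.43 TPM and a mean of 5.87 ± 0.387 (SD, n = 3) from 737 to 931 reads. Celf4 exceeded Celf6 by 3.50 ± 0.14, the widest distance within either family on the longest rows. Celf6 lay apart from the other nervous-system CELF genes, and Celf5 minus Celf6 was 2.38 ± 0.03 (log2, SD over 3 libraries).

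Celf3, Celf4, Celf5 and Celf6 together took 70.8% ± 1.41 of the summed CELF rows (SD, n = 3). Celf4 alone took 34.9%, Celf2 20.2%, Celf3 17.5%, Celf5 15.8%, Celf1 8.93% and Celf6 2.67%. These shares too were computed on the longest rows only. The highest row was 2.03 times the longest in Celf6, 1.25 times in Celf2 and less than that in the other CELF genes. In all, 21 pairs within families were compared, 6 of ELAVL and 15 of CELF genes. All 21 had the same sign in 3 of 3 libraries with the longest rows, each at an exact sign-flip permutation p of 0.25. With the highest rows 20 of 21 did, since Celf5 then had 37.3 TPM in library 2, against 37.0 TPM for Celf3.

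On the longest rows, the order of all 10 levels was Celf4, Celf2, Celf3, Celf5, Elavl3, Elavl2, Celf1, Elavl4, Elavl1 and Celf6. Libraries of neighbours did not overlap at 4 of its 9 steps. These were Celf4 above Celf2, Celf3 above Celf5, Elavl3 above Elavl2 and Elavl4 above Elavl1. At the other 5 steps the neighbours' libraries overlapped. Celf1 and Elavl4 were the closest pair: Celf1 was higher in 2 of 3 libraries, by 0.049 ± 0.18 (log2, SD over 3 libraries; exact sign-flip permutation p = 0.75), and leaving out library 3 turned that mean to -0.043. On the same scale Celf5 was higher than Elavl3 in 2 of 3 libraries, by 0.052 ± 0.048 (exact sign-flip permutation p = 0.50). Elavl1 was higher than Celf6 in 3 of 3 libraries, by 0.13 ± 0.10, but with the highest rows the difference was -0.79. With those rows, the libraries of Elavl2, at 26.5 to 34.1 TPM, overlapped those of Elavl3, at 31.3 to 35.8 TPM. Likewise, those of Celf5, at 34.9 to 37.3 TPM, overlapped those of Celf3, at 37.0 to 40.6 TPM. Celf4 and Celf2, and Elavl4 and Elavl1, still did not overlap.

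The members did not vary alike between libraries. The coefficient of variation was 23.3% for Elavl2 and 21.7% for Elavl4, larger than in 96.9% and 96.0% of detected protein-coding genes. It was 14.0% for Elavl1, 6.72% for Elavl3 and 3.77% to 10.98% for the 6 CELF genes, beside a median of 7.88% for detected genes. On the longest rows, a coefficient of 20% or more was found in 2 of 10 members and in 5.04% of detected protein-coding genes. With the highest row of each gene, the coefficient was 13.2% for Elavl2 and 21.6% for Elavl4.

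Both of these genes had the same order of libraries, highest in library 2 and lowest in library 3. That order was shared by 7 of the 10 members, all but Celf3, Celf4 and Celf6, and by 24.1% of detected protein-coding genes. Celf3 was highest in library 1 and lowest in library 2, and Celf4 was lowest in library 1. Celf6 was nearly equal in libraries 1 and 2 and lowest in library 3.

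Summed markers of cell types also moved between libraries. The 5 GABAergic markers summed to 142, 175 and 107 TPM in libraries 1, 2 and 3, the same order as Elavl2 and Elavl4. Within that list, Gad1, an enzyme of GABA synthesis, had 84.9, 107 and 61.5 TPM, and the homeobox gene Dlx2, the lowest of the list, had 1.65, 1.93 and 1.17 TPM. The order held in 4 of the 5 markers and not in Dlx1, a relative of Dlx2, which had 7.15, 6.19 and 7.44 TPM.

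The 5 glutamatergic markers summed to 196, 195 and 194 TPM, a narrow range, with Slc17a7, a vesicular glutamate transporter, highest at 90.0 TPM and Slc17a6, its relative, lowest at 6.28 TPM. The 6 astrocyte markers summed to 300.1, 339 and 363 TPM, with 4 of the 6 highest in library 3, and with the glutamate transporter Slc1a3 highest at 184 TPM and Aldh1l1 lowest at 10.8 TPM. The 6 markers of progenitors and dividing cells summed to 30.2, 32.7 and 36.9 TPM, with Sox2 highest at 17.98 TPM and Eomes lowest at 0.013 TPM. The 5 oligodendrocyte-lineage markers summed to 62.9, 47.5 and 79.2 TPM, with Olig1 highest at 34.4 TPM and Mog lowest at 0.029 TPM. Neuron markers summed to 2121, 2202 and 1918 TPM. Their sums had the order of Elavl2 and Elavl4, over a narrower range, but only 3 of the 7 neuron markers had that order themselves. The part of any of these cell types in the members' differences was not tested.

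**Figure D2:**
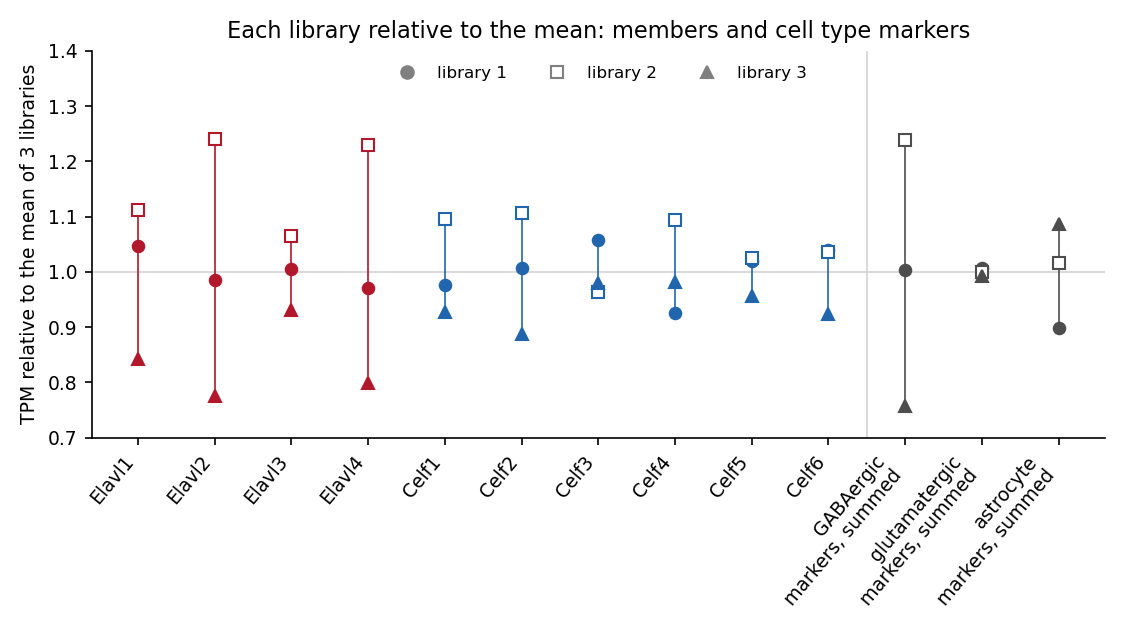
TPM in each of libraries 1, 2 and 3 divided by the mean of the 3, for the ELAVL genes (red), the CELF genes (blue) and the summed markers of 3 cell types (grey), with a line from the lowest to the highest library. Of the genes and lists drawn, Elavl2, Elavl4 and the GABAergic markers have the widest ranges, each with library 2 highest and library 3 lowest. The glutamatergic markers lie at the mean in all 3. Other marker lists are not drawn, among them the oligodendrocyte lineage, which summed to 62.9, 47.5 and 79.2 TPM in libraries 1, 2 and 3.

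The longest rows of Elavl2 and Elavl4 include long 3′ UTRs, so shorter rows of the same genes were read beside them. A coding row of Elavl2 of 425 bases had 33.2, 34.1 and 26.5 TPM, and a row of 1552 bases that ends before the long 3′ UTR had 25.4, 28.9 and 20.8 TPM. A coding row of Elavl4 of 644 bases had 14.4, 15.7 and 11.2 TPM. All of these rows were again highest in library 2 and lowest in library 3. Their coefficients of variation, 13.2%, 16.3% and 17.0%, were smaller than those of the longest rows.

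The number of deposited rows differed between members. Elavl1, Elavl3 and Celf3 had 1 row each and Celf4 had 2, while Celf2 had 28, Elavl2 16, Celf1 14, Elavl4 12, and Celf5 and Celf6 8 each. Rows of a gene share reads, so a row's level is not the level of an isoform. The highest row was 1.28 times the longest coding row in Elavl2, 1.25 times in Celf2, 1.11 times in Celf1, 1.09 times in Elavl4 and 1.05 times in Celf5. In Celf6 it was a retained-intron row of 591 bases at 11.9 ± 0.737 TPM (SD, n = 3), 2.03 times the longest coding row.

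**Figure D3:**
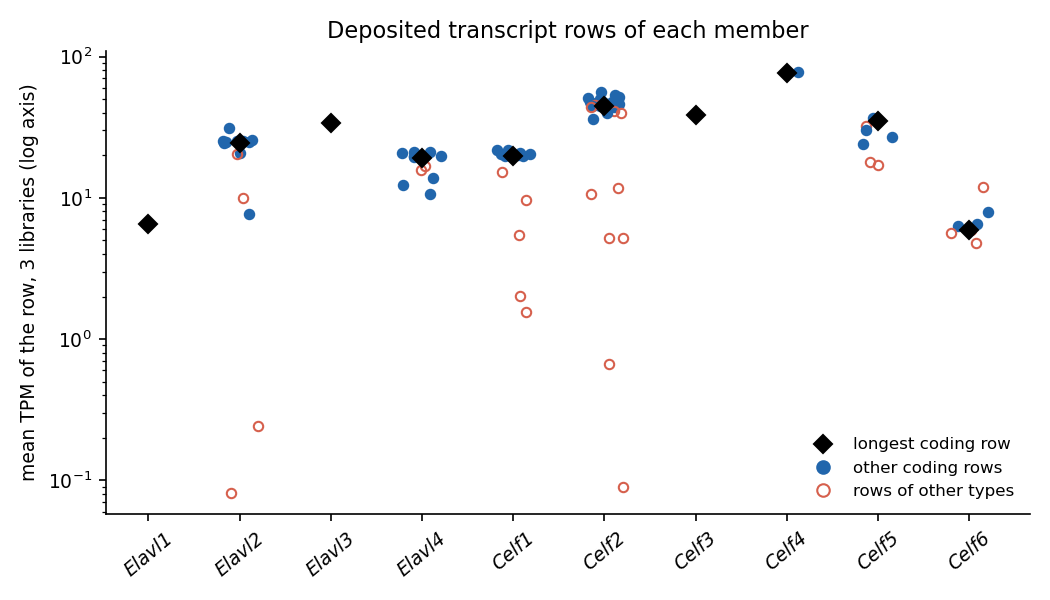
Mean TPM over 3 libraries, on a log axis, of each deposited transcript row of the 10 members, with the longest coding row as a diamond, other coding rows filled and rows of other types open. Coding rows of Celf1 lie between 19.7 and 21.9 TPM, those of Elavl2 spread from 7.64 to 31.3 TPM, and 4 rows, 2 of Elavl2 and 2 of Celf2, lie below 1 TPM.

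The 4 rows below 1 TPM lie at the 5′ side of Elavl2 and Celf2, which span 150 and 969.9 kb. In Elavl2, on the minus strand of chromosome 4, the row at chr4:91380432-91399976 held 12, 3 and 1 reads in libraries 1, 2 and 3, and the row at chr4:91399895-91400785 held 4, 1 and 0. In Celf2, on the minus strand of chromosome 2, the row at chr2:7394076-7509563 held 18, 31 and 21 reads, and the row at chr2:7077265-7081313 held 12, 9 and 4. The longest coding rows of both genes, which start further downstream, at base 91376463 in Elavl2 and 6884996 in Celf2, held 3619 to 5481 and 16022 to 20406 reads. Coding rows of Celf2 that start at the distant 5′ end, such as that at chr2:6539694-7396000 at 45.9 ± 5.28 TPM (SD, n = 3), share the gene's other exons and cannot show that their first exon was used.

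The neuronal ELAVL genes have a short exon of 39 bases in the linker before the third RNA recognition motif, which is spliced in or out in neurons. It is shown because the table holds rows of Elavl2 with and without it. Capitals mark bases that differ from Elavl4, and all 3 exons lie on the minus strand of GRCm38.
Elavl2 at chr4:91254141-91254179: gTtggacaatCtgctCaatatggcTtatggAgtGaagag
Elavl3 at chr9:22024674-22024712: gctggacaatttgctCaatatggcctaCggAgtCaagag
Elavl4 at chr4:110209740-110209778: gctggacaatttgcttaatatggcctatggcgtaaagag
The Elavl2 exon equalled that of Elavl4 at 33 of 39 bases and the Elavl3 exon at 35. A row of Elavl2 with this exon and a row that differs from it only by lacking it held the same reads but for 0, 1 and 0 in libraries 1, 2 and 3. A pair of Elavl4 rows that both hold the exon and differ by the first 42 bases of the next one held equal reads in all 3 libraries. A read that reaches from such a short stretch into a neighbouring exon may count for both rows, and the counting rule is not given. These row counts therefore could not tell how often the stretch was used.

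For 5 members the table holds a coding row and a longer one that contains it and adds a stretch lying almost wholly in the 3′ UTR. Where a gene had several such pairs, the one with the longest added stretch was taken. The reads that the longer row has beyond the shorter one, per base of the added stretch, were divided by the reads per base of the shorter row. A ratio of 1 means that the added stretch was covered as densely as the shorter row, and a ratio near 0 that it was hardly covered. The same could be computed for 418 protein-coding genes, whose median ratio was 0.70, with quartiles of 0.30 and 0.99.

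Celf5 had ratios of 1.29, 1.37 and 1.23 in libraries 1, 2 and 3 over 2349 added bases, with a mean of 1.30 ± 0.07 (SD, n = 3), above 89.5% of the genes. Elavl2 had 0.92, 1.07 and 0.86 over 2639 added bases, with a mean of 0.95 ± 0.11 (SD, n = 3). Celf2 had 0.933, 1.004 and 0.821 over 6679 added bases, with a mean of 0.92 ± 0.09 (SD, n = 3). Celf2 had 2 other such pairs, whose ratios were 0.65, 0.62 and 0.64 over 3268 added bases (mean 0.64 ± 0.02) and 1.01, 1.02 and 0.92 over 5151 added bases (mean 0.98 ± 0.05, SD, n = 3 each). The ratio of Celf2 therefore varied with the pair of rows, on either side of the median gene.

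Celf1 had 0.81, 0.87 and 0.94 over 3173 added bases, which the shorter row skips as an intron of the 3′ UTR, with a mean of 0.87 ± 0.07. Celf6 had 0.58, 0.56 and 0.49 over 1027 added bases, with a mean of 0.54 ± 0.05 (SD, n = 3 each), below the median gene. The ratio was highest in library 2 in 58.4% of the 418 genes and lowest in library 3 in 57.9%, and their medians were 0.72, 0.76 and 0.64 in libraries 1, 2 and 3. Elavl2, Celf2 and Celf5 had the same order as these medians, and Celf1 and Celf6 did not. The part of this coverage in the levels of the longest rows was not tested.

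**Figure D4:**
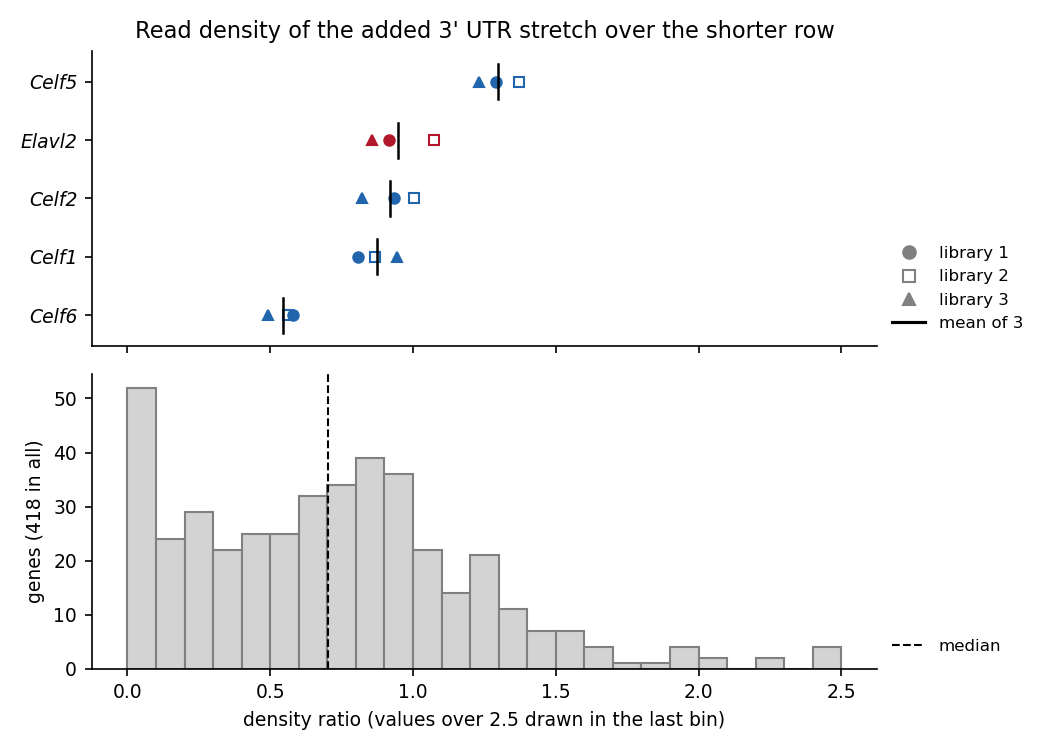
Upper panel, read density of the added 3′ UTR stretch divided by that of the shorter coding row in libraries 1, 2 and 3 for 5 members, with a line at the mean, and lower panel, the same mean ratio for 418 protein-coding genes with a dashed line at their median of 0.70. Celf5 lies furthest right at 1.23 to 1.37, and Celf6 lies left of the median at 0.49 to 0.58.

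The members' own 3′ UTRs are long. In GENCODE M21 their median length was 2847 bases, beside 995 bases for 17343 protein-coding genes, and it ran from 1070 bases in Celf3 to 7381 in Celf2. AU-rich elements, which ELAVL proteins and decay factors bind, were counted by their letters on the sense strand. The pentamer ATTTA was present in 9 of 10 members, all but Celf6, and in 66.2% of all 3′ UTRs, but in 90.4% of those within the members' range of length. Per kb, Elavl2 had the most, 6.06, more than 95.7% of 3′ UTRs, then Elavl1 with 4.03 and Celf4 with 3.77.

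The longer nonamer TTATTTATT, which contains the pentamer, was found in 3 of 10 members and in 7.51% of all 3′ UTRs, or 11.9% of those of like length. Elavl1 held 8 matches, some of which overlap each other, and Elavl4 and Celf3 held 1 each. A match of each is shown, with the nonamer in capitals and 10 bases on either side. These are the members with this exact nonamer in the 3′ UTR of the longest coding row, and variants of it were not searched.
Elavl1 at chr8:4285788-4285816, minus strand: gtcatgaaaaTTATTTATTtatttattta
Elavl4 at chr4:110204985-110205013, minus strand: cttgaaacacTTATTTATTtaattgcaga
Celf3 at chr3:94492115-94492143, plus strand: ttctctactcTTATTTATTgagttttact
The GU-rich element that Celf1 binds, searched as 11 bases in which TGTT repeats without a gap, was in none of the 10 members' 3′ UTRs and in 3.69% of all 3′ UTRs, or 6.18% of those of like length. The shorter word TGTT was in all 10 members and in 90.0% of all 3′ UTRs, or 99.9% of those of like length. The share of T in the 3′ UTR set the ELAVL genes apart from each other: it was 36.3% in Elavl2, 34.2% in Elavl4 and 33.2% in Elavl1, but 21.6% in Elavl3, which only 6.08% of all 3′ UTRs fell below. These matches describe the letters and were not tied to binding in these cells.

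Other RNA-binding proteins and mRNA decay factors were read from a list of 14, which holds proteins that bind AU-rich elements and also poly-A and poly-C binding proteins and a deadenylase. Of these, 10 were detected, beside 61.5% of protein-coding genes. The list's median of log2(mean TPM + 1) was 3.65, beside 4.89 for the ELAVL and CELF genes and 1.94 for all protein-coding genes. The highest were Pabpc1, the main cytoplasmic poly-A binding protein, at 81.9 ± 2.71 TPM, the poly-C binding proteins Pcbp2 at 43.1 ± 3.56 and Pcbp1 at 39.9 ± 2.35 TPM, Hnrnpd, which encodes the decay factor AUF1, at 30.4 ± 2.12 TPM, and the translational repressor Tia1 at 20.7 ± 1.22 TPM (SD, n = 3 each). The lowest were Igf2bp1 at 0.0083 TPM and Igf2bp2 at 0.398 TPM, which bind mRNAs in embryonic tissue, and Zfp36, which encodes the decay factor tristetraprolin, at 0.271 TPM. On the longest rows, Elavl3 and Elavl2 had mean levels on either side of Hnrnpd, and Zfp36 lay below the level taken as detection. With the highest rows, Hnrnpd was at 88.7 ± 7.47 TPM (SD, n = 3), above Celf4, the highest member, at 78.0 TPM.

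MBNL proteins often act on the same exons as CELF proteins in the opposite sense. Mbnl2 had 22.1, 29.6 and 24.7 TPM, with a mean of 25.5 ± 3.83, and Mbnl1 had 6.34, 7.69 and 6.17 TPM, with a mean of 6.73 ± 0.833 (SD, n = 3 each). Mbnl3 had 0.013 TPM. On the longest rows, Mbnl2 lay between Elavl3 and Elavl2 in mean level, and Mbnl1 next to Elavl1. With the highest rows, Mbnl2 at 25.8 TPM lay below Elavl2 at 31.3 TPM, and Mbnl1 at 9.41 TPM lay above Elavl1 at 6.53 TPM.

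Of 17 mRNAs known to be bound or regulated by ELAVL proteins, 16 were detected, beside 61.5% of protein-coding genes. The list's median was 4.02 (log2). The highest were Gap43, a growth cone protein, at 458 ± 8.95 TPM, Camk2a, a synaptic kinase, at 129.6 ± 4.27, and the microtubule-associated proteins Mapt and Map1b at 123 ± 12.1 and 100.4 ± 17.3 TPM. Marcks, an actin-binding kinase substrate, followed at 80.0 ± 9.67 TPM (SD, n = 3 each). Among the lowest were Ptgs2, which encodes cyclooxygenase-2, at 0.187 TPM, and Nova1, a neuronal splicing factor, at 4.52 TPM. Most of the listed neuronal targets were present in the cultures, and Ptgs2, a target known from inflammation, was not detected.

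Of 11 mRNAs known to be bound or regulated by CELF proteins, 8 were detected, beside 61.5% of protein-coding genes. The list's median was 3.63 (log2). The highest were App, the amyloid precursor, at 421 ± 25.3 TPM, Snap25, a synaptic fusion protein, at 373 ± 27.2, Mapt, Grin1, the obligate NMDA receptor subunit, at 66.7 ± 3.11, and the transcription factor Mef2a at 29.2 ± 3.69 TPM (SD, n = 3 each). The 3 not detected were the cardiac troponin Tnnt2 at 0.109 TPM, Ptgs2, and the muscle chloride channel Clcn1 at 0.299 TPM. Both of the muscle targets, which are known from myotonic dystrophy, were below 1 TPM here. Mapt and Ptgs2 are in both target lists.

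**Figure D5:**
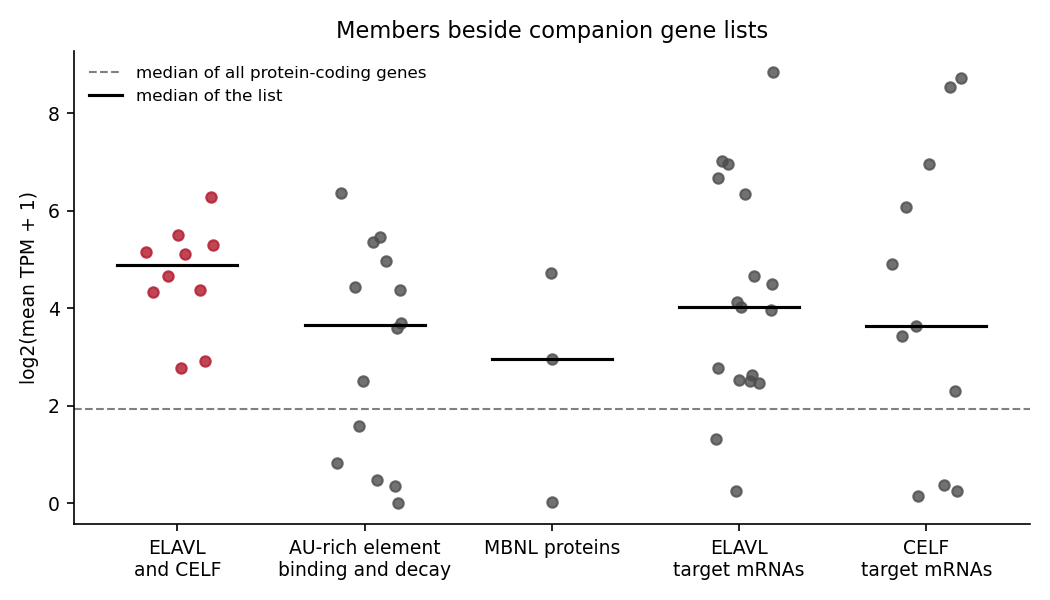
log2(mean TPM + 1) of the 10 ELAVL and CELF genes (red) and of the genes of 4 companion lists (grey), each point a gene, with a bar at the list's median and a dashed line at the median of all protein-coding genes, 1.94. The 10 members all lie above that line, with a median of 4.89, while the lowest gene of each companion list lies near 0.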

How the data were processed

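RNA from 3 libraries of untreated cortical neurons was sequenced on a NextSeq 500 after poly-A selection with a strand-specific kit, per the labels' protocols. TPM per transcript row was computed and deposited by the authors. The submitters' processing notes name Trimmomatic, TopHat, Bowtie, HTSeq and mm10, without versions. How reads shared by rows or mapping to several places were counted is not given in the sources used here.

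Rows were matched without version to GENCODE M21 on the same build: 83017 of 84660 matched, and 47 of these lay elsewhere and were left out. Symbols, exons and sequences are from M21. Rows of Elavl1 and Elavl3 have other ends in M21, so their lengths were adjusted by the moved ends. A gene's value is its longest protein-coding row, with the highest row as a check, and rows were never summed. For 72756 rows of at least 200 bases with unchanged ends, the product of TPM and exonic length fell on whole multiples of a library's unit (tolerance 0.05) in 99.88% to 99.89% of rows, and this gave the reads. Reads were used for depth and for comparing nested rows, with no count test, since there is 1 group. Chi-square per degree of freedom between libraries was 12.3 to 18.1 and no 2 libraries had an equal value above 0 in any row, so all 3 were kept.

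Detection is a mean of 1 TPM, and differences between genes were taken on log2(TPM + 1), on which ratios of low genes come out too small. Pairs were tested by flipping signs over libraries (exact permutation, two-sided). Added 3′ UTR stretches had at least 500 bases, 90% of them beyond the stop codon, and at least 100 reads on the shorter row. Identity came from global alignment of translated coding sequences. Members and lists were chosen with earlier results of these data known. Named genes are the members, the 5 highest and 3 lowest of each companion list, the highest and lowest marker of each type, and the neighbours in level of 2 members. Dlx1 was named after its values were seen, and 1 gene that this rule names is not reported here. Alternatives were the highest row, the highest protein-coding row, leaving out each library, scaling to nuclear protein-coding genes, medians, other detection levels, a pseudocount of 0.1 and detected genes only. The calculations were tested on simulated data. Python 3.11.15, pandas 2.3.3, numpy 2.4.6, scipy 1.17.1, Biopython 1.88 and matplotlib 3.10.9 were used.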

Additional observations from a re-analysis of the deposited data

How the results depend on the processing

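No paired analysis was possible because the series has 1 group. All 10 members were detected under each alternative run. Leaving out a library moved a member's level to between 0.880 and 1.11 times its value, both in Elavl2. Scaling to nuclear protein-coding genes raised all levels, to a median of 138 TPM against 29.01 TPM as deposited. The total then held only the longest coding row of each nuclear protein-coding gene. Other rows, non-coding genes and mitochondrial genes were left out of it, and the part of each in the rise was not tested. Celf1 minus Elavl4, 0.049 (log2), ran from -0.043 to 0.14 when 1 replicate was left out, negative without replicate 3. Elavl1 minus Celf6, 0.13, was -0.79 with the highest row and -0.26 with the highest protein-coding row. Elavl1 has 1 row, so only the row of Celf6 changed, from 5.87 TPM to 11.9 and 7.98 TPM. Why the rows of Celf6 differ was not tested. The highest protein-coding row and the differences between neighbours of different families were chosen after seeing the data. List medians (log2) moved as follows with detected genes only: AU-rich element and decay factors to 4.41, MBNL genes to 3.84 and CELF targets to 5.498, as fewer genes enter. With the highest row, MBNL genes were at 3.38 and ELAVL targets at 4.504. Without 1 replicate, the ELAVL targets' median ran from 3.93 to 4.09. Depth limits rows with few reads, such as those upstream of Elavl2 and Celf2.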
